A study of Mus musculus with 6 samples.

Results

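Myofibroblast-like scar fibroblasts of the mouse cortical lesion were examined as a set of 5857 nuclei out of 67360 barcodes in 6 single-nucleus RNA libraries. The nuclei were chosen by their own measured counts of unique molecular identifiers (UMIs, which count RNA molecules). Each had at least 1000 UMIs, with under 5% of them from mitochondrial genes. Each held a UMI of at least 3 of the 4 fibrillar collagen genes Col1a1, Col1a2, Col3a1 and Col5a2, and of at least 3 of the 5 markers Postn, Col12a1, Kif26b, Nox4 and Col8a1. At most 1 of 6 exclusion genes was allowed, namely Lama1, Lamc3, Slc47a1 and Slc6a20a of meningeal and perivascular fibroblasts and Ptprc and Csf1r of leukocytes and macrophages. Values of these 15 genes were fixed in part by the choice and are given as a description. Of 60729 nuclei within the limits on UMIs and mitochondrial share, 22100 held at least 3 of the 4 collagens and are called collagen-positive. The 5857 chosen nuclei, called members, are a subset of these.

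The libraries came from cortical lesions made by photothrombosis, in which a light-activated dye closes vessels. Lesions were dissected at 7 or 21 days after the injury (dpi). At each time 1 library came from wild-type mice with no treatment named (Ctrl) and 1 from wild-type mice given ADWA11, an antibody that blocks the integrin αvβ8. The other came from Col1a2(creER); Tgfbr2(flox) mice (Tgfbr2-cKO), in which tamoxifen starts the recombination of the TGFβ receptor gene Tgfbr2 in cells that express Col1a2. For its Tgfbr2-cKO mice the study describes repeated tamoxifen from before the injury until lesions were taken, while the labels name no treatment. They also give no age and do not say whether Ctrl mice received tamoxifen. The study's general methods give 1 age range for mice of both sexes, from young to mature adults, and tamoxifen for controls of its knockout strains where it applied, without naming these libraries. Each library pooled lesions of 2 mice, a male and a female, and nuclei were sorted on a DNA dye without a marker of cell type. Each group was 1 library, so no test between groups was made, and a fit that shares the spread over both times was not run. All intervals are exact 95% intervals for counting error only and do not cover the spread between mice. Where 3 values are given for a time, their order is Ctrl, ADWA11 and Tgfbr2-cKO.

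Myofibroblasts are fibroblasts that take on features of smooth muscle in a healing wound and lay down the collagen-rich scar. They are known to be driven by transforming growth factor β (TGFβ), which cells secrete in a latent form and which integrins such as αvβ8 release. Active TGFβ binds TGFBR2 and TGFBR1, and SMAD proteins carry the signal to target genes. In the healthy brain, fibroblasts are found in the meninges, along larger vessels and in the choroid plexus.

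The libraries held 64798965 to 140310354 UMIs each. The members held 11846225, 13270266 and 575892 UMIs (7 dpi) and 17975955, 11115978 and 892406 UMIs (21 dpi), and their median depth per nucleus was 8716, 10865 and 7998 UMIs (7 dpi) and 7443, 8323 and 14029 UMIs (21 dpi). The Tgfbr2-cKO library at 7 dpi stood apart, since 6544 of its 10856 nuclei passed a neuron gate (at least 3 of 5 neuron markers), against 159 of 7906 in Ctrl and 59 of 10914 with ADWA11. At 21 dpi Tgfbr2-cKO was also highest, with 1075 of 6328 nuclei, against 221 of 12069 in Ctrl and 76 of 12656 with ADWA11. That gate took in 3, 4 and 11 members (7 dpi) and 4, 0 and 7 members (21 dpi), which is 20.8% and 12.3% of the 53 and 57 members of the Tgfbr2-cKO libraries. A myeloid gate (at least 3 of 7 myeloid markers) took in 110, 114 and 2 members (7 dpi) and 126, 117 and 6 members (21 dpi). Counts of gene lists in Tgfbr2-cKO are therefore given also outside both gates, a choice made after seeing the data. Levels are CPM, a gene's UMIs per 1000000 UMIs of non-mitochondrial genes over all members of a library. The neuron markers summed to 73.4, 66.5 and 1985 CPM (7 dpi) and 85.8, 25.2 and 972 CPM (21 dpi) in members. Pairs of libraries shared 21 to 61 cell barcodes, and 6 barcodes were members in more than 1 library. Called doublets made up 5.11, 7.64 and 13.2% (7 dpi) and 7.13, 8.17 and 10.5% (21 dpi) of members.

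The label was checked on genes outside the rule, with each nucleus thinned to 3000 UMIs so that depths were equal, which left 1154, 1072 and 52 members (7 dpi) and 1965, 1165 and 56 members (21 dpi). Fibronectin (Fn1) was found in 85.1, 80.9 and 65.4% (7 dpi) and 64.8, 47.2 and 39.3% (21 dpi) of members. Fap, the fibroblast activation protein, was found in 44.7, 39.7 and 26.9% (7 dpi) and 38.4, 31.7 and 26.8% (21 dpi). Cthrc1, a marker of collagen-producing scar fibroblasts in other organs that the study used to trace myofibroblasts of the brain lesion, was found in 17.2, 24.3 and 17.3% (7 dpi) and 4.38, 4.55 and 0% (21 dpi). In nuclei of the neuron or myeloid gates described above that were not collagen-positive, thinned alike, a UMI was found in at most 21% of nuclei of any library for Fn1, 6.89% for Fap and 4.4% for Cthrc1. The shares of Fn1 and Fap in members lay above this background in every library, and those of Cthrc1 at 7 dpi, whereas at 21 dpi Cthrc1 was close to or below it. Any fibroblast could pass this contrast, so it does not set the members apart from other fibroblasts. Beside the other collagen-positive nuclei, 5 of 11 activation genes (Fap, Ddah1, Inhba, Lrrc15, Thbs2) were higher in members in all 6 libraries. Over all genes 9.04% were. Fn1 and Cthrc1 were not. Of 20 contractile genes 8 were, with Tagln but without Acta2. With others of at most 1 exclusion gene, 4 of each list were, against 4.95%, and Tagln was not. The muscle actin Acta2, the classical myofibroblast gene, was found in 3.64, 3.73 and 1.92% (7 dpi) and 1.37, 1.46 and 0% (21 dpi) of members, with a background of up to 2.68%. Lrrc15, another myofibroblast marker, was found in 2.69, 1.68 and 0% (7 dpi) and 1.02, 0.944 and 0% (21 dpi), with a background of up to 0.248%. Both genes were measured at so low a level that a nucleus of 3000 UMIs holds far less than 1 of their UMIs on average, so these shares do not say how many members express them. By Acta2 and Lrrc15 the label could therefore not be checked nucleus by nucleus. At 21 dpi Cthrc1 was close to or below background and Acta2 below it. There the name rests mainly on the markers of the rule. Beside others of at most 1 exclusion gene, the activation and contractile lists had median log2 ratios of 0.77 and 0.19 in Ctrl at 21 dpi. In Tgfbr2-cKO at 21 dpi these medians were −0.08 and 0.03, so those lists did not bear out the name there. At least 2 of 24 contractile genes were in 99, 99.3 and 92.3% (7 dpi) and 97.7, 98.8 and 100.0% (21 dpi), against up to 68.8% of the gate nuclei, but these were led by Cald1, Pdlim5, Palld and Mylk, which many cell types express.

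Promoters of 3 markers and of Acta2 are shown because these genes define or name the cell state, and TGFβ signalling is what the study altered. They are the 250 bases before the transcription start from RefSeq (build GRCm38.p6), which were found for 6 of 8 genes looked for. Letters are in lower case, with matches to 4 motifs in capitals. The motifs, searched on both strands, were CAGAC (SMAD), GGAATG (TEAD), TGANTCA (AP-1) and TGTGGT (RUNX). They were present in 42.2%, 12.6%, 6.75% and 14% of 32851 mouse promoters of this length. The annotated genes lie at chr3:54361109-54391037 (Postn, plus strand), chr7:87246096-87398710 (Nox4, plus strand), chr16:57624258-57754737 (Col8a1, minus strand) and chr19:34241090-34255590 (Acta2, minus strand).
Postn, upstream start, chr3:54359017-54359266, plus strand: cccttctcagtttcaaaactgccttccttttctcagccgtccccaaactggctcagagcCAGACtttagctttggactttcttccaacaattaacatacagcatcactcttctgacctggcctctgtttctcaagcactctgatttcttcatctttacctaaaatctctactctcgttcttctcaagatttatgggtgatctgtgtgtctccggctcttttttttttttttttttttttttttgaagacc
Postn, downstream start, chr3:54360857-54361106, plus strand: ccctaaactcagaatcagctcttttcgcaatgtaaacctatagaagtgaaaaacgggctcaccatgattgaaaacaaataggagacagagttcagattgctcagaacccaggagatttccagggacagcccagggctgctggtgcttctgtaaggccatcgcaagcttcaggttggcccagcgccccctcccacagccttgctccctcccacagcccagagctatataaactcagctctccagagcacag
Nox4, chr7:87246399-87246648, plus strand: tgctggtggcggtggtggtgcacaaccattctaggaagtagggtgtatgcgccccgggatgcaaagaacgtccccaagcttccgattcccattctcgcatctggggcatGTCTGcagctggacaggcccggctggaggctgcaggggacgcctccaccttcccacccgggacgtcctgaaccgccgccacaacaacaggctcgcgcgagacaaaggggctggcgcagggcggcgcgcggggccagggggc
Col8a1, chr16:57754738-57754987, minus strand: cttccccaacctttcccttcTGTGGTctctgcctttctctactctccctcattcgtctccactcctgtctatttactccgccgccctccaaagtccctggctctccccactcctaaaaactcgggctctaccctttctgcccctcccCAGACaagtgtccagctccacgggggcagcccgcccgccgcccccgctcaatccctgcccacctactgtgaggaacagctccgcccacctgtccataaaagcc
Acta2, chr19:34255374-34255623, minus strand: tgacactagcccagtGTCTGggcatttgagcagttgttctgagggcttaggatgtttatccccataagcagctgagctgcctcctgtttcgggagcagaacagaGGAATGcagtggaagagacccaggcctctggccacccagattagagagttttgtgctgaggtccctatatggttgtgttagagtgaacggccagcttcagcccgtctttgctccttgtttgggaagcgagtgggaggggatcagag
The upstream Postn promoter held CAGAC 191 bases before its start, and the downstream one, which lies next to the annotated gene start, held none of the 4 motifs. Nox4 held CAGAC on the opposite strand at 141 bases. Col8a1 held CAGAC at 103 and TGTGGT at 230 bases. The Nox4 stretch lies wholly, and that of Acta2 mostly, inside the annotated gene, whose start is upstream of the RefSeq start used here. Acta2 held CAGAC on the opposite strand at 235 and GGAATG at 146 bases. With CAGAC in 42.2% of all promoters, these matches describe the sequence and do not mark a bound site.

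The mix of the 5 markers differed between the times. Postn (periostin, a secreted matrix protein) was found in 52.7, 37.6 and 36.5% (7 dpi) and 21.1, 25.7 and 23.2% (21 dpi) of members at 3000 UMIs per nucleus. Kif26b, an unconventional kinesin, was found in 50.6, 31.2 and 40.4% (7 dpi) and 16.9, 10.9 and 10.7% (21 dpi). Both were less frequent at 21 than at 7 dpi in every group. Nox4, an NADPH oxidase that makes hydrogen peroxide, was found in 51.9, 40.3 and 30.8% (7 dpi) and 67.4, 56.1 and 32.1% (21 dpi), with the higher value at 21 dpi in all 3 groups. Col12a1, a collagen on the surface of fibrils, was in 79.4, 71.5 and 65.4% (7 dpi) and 86, 79.7 and 57.1% (21 dpi), and Col8a1, a short-chain collagen, in 88.4, 76 and 67.3% (7 dpi) and 91, 74.8 and 46.4% (21 dpi). In nuclei of the neuron or myeloid gates that were not collagen-positive, the share with a UMI was at most 2.68% for Nox4 and 5.0% for Postn in any library. For Kif26b it reached 18.7%, in the neuron gate.

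All 5 markers were detected in 33.5, 15 and 13.2% (7 dpi) and 7.81, 4.0 and 0% (21 dpi) of members and exactly 3 in 31.9, 49.9 and 64.2% (7 dpi) and 63.5, 71.3 and 80.7% (21 dpi). In Ctrl at 7 dpi all 5 together was the most frequent combination, with 413 members. In Ctrl at 21 dpi it was Col12a1, Nox4 and Col8a1 without Postn or Kif26b, with 1115 members (50.3%) against 116 (9.42%) at 7 dpi. This triplet made up 48.8% of ADWA11 members and 29.8% of Tgfbr2-cKO members at 21 dpi. Just outside the threshold, with 2 of the 5 markers, lay 329, 544 and 94 nuclei (7 dpi) and 1346, 962 and 114 nuclei (21 dpi), and just inside, with 3, lay 393, 549 and 34 nuclei (7 dpi) and 1407, 856 and 46 nuclei (21 dpi). In Ctrl at 21 dpi Nox4 was detected in 24.6% of the nuclei just outside and 83.9% of those just inside, at median depths of 5249.5 and 7036 UMIs. The nuclei just outside outnumbered those just inside in Tgfbr2-cKO at both times and in ADWA11 at 21 dpi.

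**Figure D1:**
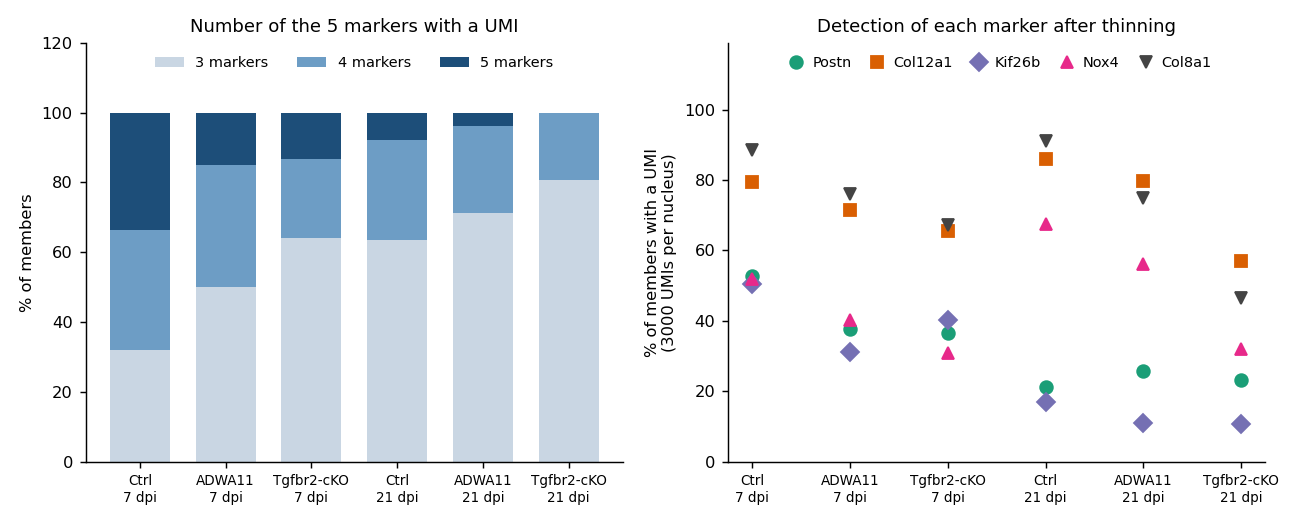
Share of members (percent, y axis) with each of the 5 markers after thinning to 3000 UMIs per nucleus, by library, and the share with 3, 4 or 5 markers detected. In Ctrl, Kif26b lay at 50.6% at 7 dpi and 16.9% at 21 dpi, and Nox4 at 51.9% and 67.4%.

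Members were fewest in the Tgfbr2-cKO libraries, by number and by share. At 7 dpi they made up 32.8% (31.3 to 34.3) of collagen-positive nuclei in Ctrl (1232 of 3758), 25.3% (24 to 26.6) with ADWA11 (1100 of 4346) and 13.2% (10 to 16.9) in Tgfbr2-cKO (53 of 402). At 21 dpi they made up 28.4% (27.4 to 29.4) in Ctrl (2215 of 7802), 23.3% (22.1 to 24.5) with ADWA11 (1200 of 5151) and 8.89% (6.8 to 11.4) in Tgfbr2-cKO (57 of 641). The order was Ctrl, ADWA11, Tgfbr2-cKO at both times. The 3 intervals of each time did not overlap, but they count nuclei of 1 library per group and do not cover mice. Within Ctrl at 21 dpi, the share was 28% (26.6 to 29.5) in female-called and 35.7% (33.7 to 37.7) in male-called nuclei, which did not overlap either. The log2 ratio of shares for Tgfbr2-cKO over Ctrl was −1.31 (−1.74 to −0.92) at 7 dpi and −1.67 (−2.08 to −1.30) at 21 dpi. For ADWA11 over Ctrl it was −0.37 (−0.49 to −0.25) and −0.29 (−0.39 to −0.18). The rule itself bears on the size of these gaps. With 2 markers required in place of 3 the Tgfbr2-cKO ratio at 7 dpi was −0.18 (−0.44 to 0.06), an interval that held 0, and with 4 required it was −2.24 (−2.98 to −1.59). With no exclusion gene allowed the ADWA11 ratio at 21 dpi was −0.09 (−0.25 to 0.06), on shares of 10.6% against 11.3%, so that difference was lost.

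As a share of all passing nuclei, members made up 15.6, 10.1 and 0.488% (7 dpi) and 18.4, 9.48 and 0.901% (21 dpi). Those shares also depend on how many fibroblasts of any kind were captured, since collagen-positive nuclei made up 47.5, 39.8 and 3.7% (7 dpi) and 64.6, 40.7 and 10.1% (21 dpi) of the libraries. The log2 ratio for Tgfbr2-cKO over Ctrl at 7 dpi was −5.00 (−5.42 to −4.60), or −3.69 with the nuclei of the neuron gate left out of the denominator. When each nucleus was thinned to 3000 UMIs before the rule was applied, members made up 41.4, 23.4 and 8.68% (7 dpi) and 31, 18.4 and 3.53% (21 dpi) of collagen-positive nuclei. The order of groups was the same and the gaps were wider, with a Tgfbr2-cKO ratio of −3.13 at 21 dpi, where the unthinned members were the deepest of the 6 libraries.

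Nuclei were assigned to female or male mice by Xist and Y-linked genes, which gave a look at each sex inside a library. Nuclei with both or neither had no call, among them 272, 201 and 7 (7 dpi) and 344, 156 and 15 (21 dpi) members. Shares by sex describe the called nuclei only, so both sexes can lie above the share of all nuclei. Of female collagen-positive nuclei, members made up 37, 28.4 and 15.2% (7 dpi) and 28, 23.3 and 8.14% (21 dpi), and of male ones 33.7, 25 and 15.9% (7 dpi) and 35.7, 25.8 and 7.42% (21 dpi). Tgfbr2-cKO was lowest in both sexes at both times, on 497, 569 and 23 (7 dpi) and 1095, 390 and 21 (21 dpi) female and 463, 330 and 23 (7 dpi) and 776, 654 and 21 (21 dpi) male members. From 7 to 21 dpi in Ctrl the log2 ratio of the share was −0.40 in female and 0.08 in male nuclei, so the lower share at 21 dpi in all nuclei, −0.21 (−0.31 to −0.11), was not seen in both. Its direction also depended on the rule. With 2 of 5 markers required it was 0.14 (0.05 to 0.22) in all nuclei, and with 4 required −1.11 (−1.25 to −0.97).

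**Figure D2:**
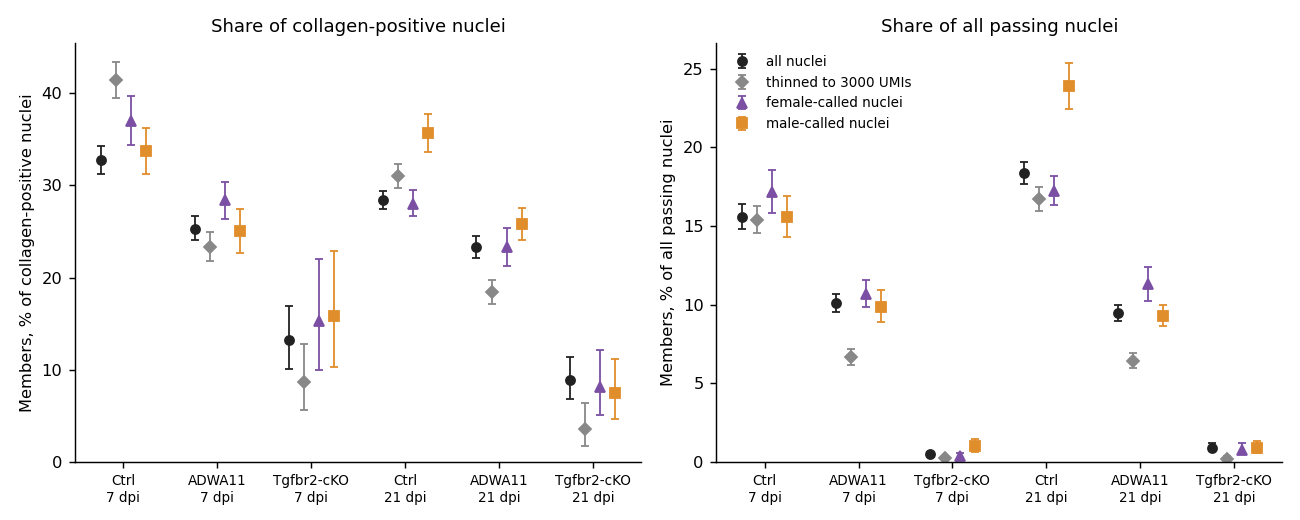
Members as a percent of collagen-positive nuclei and of all passing nuclei (y axes) in the 6 libraries, with exact 95% counting intervals. At 7 dpi the share of collagen-positive nuclei lay at 32.8% in Ctrl, 25.3% with ADWA11 and 13.2% in Tgfbr2-cKO.

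Beside the other collagen-positive nuclei of the same library, members held more RNA of fibril collagens and of the enzymes that process them. This is a description, since the same counts chose the members and since 64.3, 57.4 and 39.5% (7 dpi) and 45.9, 41.5 and 40.9% (21 dpi) of the others held at least 2 exclusion genes. Of 14510 genes with at least 100 UMIs in members, 1312 (9.04%) were higher in members in all 6 libraries and 1889 (13.0%) lower. Of 10 fibril collagens outside the rule, 8 were higher in all 6, with list medians of 0.24 to 1.60 over the libraries (log2 ratio). This list also holds collagen VI chains, which form beaded filaments, and Col6a1 and Col6a2 were among the 8. Of 14 processing enzymes, such as the lysyl oxidases, 10 were higher in all 6. When the others were limited to nuclei with at most 1 exclusion gene, 718 genes (4.95%) were higher and 1271 (8.76%) lower in all 6. The 10 collagens then gave 2 (Col27a1 and Col16a1), and the 14 enzymes 6. The medians of the collagen list were then 1.65, 0.99 and 0.35 (7 dpi) and 1.12, 0.49 and −0.03 (21 dpi), so the direction was lost in Tgfbr2-cKO at 21 dpi.

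The genes most evenly higher in members were led by Mfap4, a protein of elastic fibres, at log2 ratios of 1.22 to 2.32 over the 6 libraries. Next came Sec16b (1.21 to 1.78), the tenascin Tnn (1.20 to 4.93), the receptor Gpr39 (1.16 to 3.41), Fndc1 (1.02 to 1.94), the protease Prss12 (1.00 to 2.20) and Pappa2 (0.99 to 4.99), which cleaves insulin-like growth factor binding proteins. Gm28730, Gm3830, Gm41724, AC103362.1 and Gm48521 were also in this group of 12. Lower in members were macrophage and other leukocyte genes, namely F13a1 (−3.90 to −3.46), P2ry12 (−4.52 to −2.73), Btk (−3.75 to −2.63), Wdfy4, Samsn1, Cyth4, Mrc1 (−3.72 to −2.10), Il10ra, Fgr and Adap2os. The transporter Slc13a3 (−4.57 to −2.40) and the meningeal prostaglandin synthase Ptgds (−4.69 to −2.35) were lower too. The −4.52 of P2ry12 (−9.83 to −2.02) rests on 1.12 CPM in Tgfbr2-cKO members at 21 dpi. The −2.40 of Slc13a3 is a bound, at 0 CPM in Tgfbr2-cKO members at 7 dpi. The myeloid gate took in 51.7, 41.1 and 13.8% (7 dpi) and 29.6, 35.7 and 15.8% (21 dpi) of the other collagen-positive nuclei, and in Ctrl the macrophage genes differed less without gate nuclei. With nuclei of both gates left out of members and others, the Ctrl ratio went from −3.47 to −1.86 (7 dpi) and −3.59 to −1.88 (21 dpi) for F13a1. For Mrc1 it went from −3.67 to −0.97 (7 dpi) and −2.75 to −0.90 (21 dpi), and for P2ry12 from −4.04 to −1.68 (7 dpi) and −2.92 to −1.17 (21 dpi). Mrc1 is itself a marker of the myeloid gate, so part of its change follows from the gate. The ratios of Slc13a3, from −2.92 to −4.00 (7 dpi) and −2.94 to −3.60 (21 dpi), and of Ptgds, from −2.58 to −3.65 (7 dpi) and −2.35 to −2.90 (21 dpi), were not smaller in size. In Tgfbr2-cKO without gate nuclei, 8 of the 10 macrophage and leukocyte genes gave no ratio below 0 at 7 dpi (all but F13a1 and Wdfy4), and Samsn1 and Fgr gave none at 21 dpi. With others of at most 1 exclusion gene, Slc13a3 was closer to 0, at −1.92 (7 dpi) and −1.63 (21 dpi) in Ctrl and −0.61 and −1.86 in Tgfbr2-cKO. With others of at most 1 exclusion gene, Btk, Il10ra, Adap2os and Ptgds were above 0 in Tgfbr2-cKO at 21 dpi.

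Comparisons of members between libraries describe which genes differed between the groups. At each time ADWA11 and Tgfbr2-cKO were set against the same Ctrl library, so a call shared by both is not an independent repeat. The members compared were not the same mix of nuclei. All 5 markers were detected in 33.5, 15 and 13.2% (7 dpi) and 7.81, 4.0 and 0% (21 dpi) of them. Whether a difference came from the cut of Tgfbr2 or the block of αvβ8, from this mix or from the spread between mice was not tested. A gene was examined with at least 50 UMIs in both libraries together. It was called higher or lower when its CPM differed at least 2-fold and the counting interval of the log2 ratio left out 0. With ADWA11 at 7 dpi, 723 (5.22%) of 13853 genes were called higher and 312 (2.25%) lower than in Ctrl. At 21 dpi, 498 (3.41%) and 620 (4.24%) of 14618 were. In Tgfbr2-cKO at 7 dpi, 959 (8.0%) and 564 (4.7%) of 11992 were called, and outside both gates 608 (5.34%) and 302 (2.65%) of 11391. At 21 dpi, 1170 (8.6%) and 906 (6.66%) of 13607 were called, and outside both gates 897 (6.79%) and 835 (6.32%) of 13214. The calls in Tgfbr2-cKO depend on how libraries were scaled. TMM factors gave 840 higher and 816 lower at 7 dpi and 1038 higher and 1107 lower at 21 dpi, where the excess of higher genes turned into one of lower genes. They moved the median of all genes from −0.08 to −0.22 (7 dpi) and from −0.03 to −0.13 (21 dpi, log2). These shares are the background for the lists below, which are described by counts and medians with no test.

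Tgfbr2, the gene cut in the Tgfbr2-cKO (chr9:116084293-116175360, minus strand, GRCm38), stood at 329 CPM in Ctrl, 239 with ADWA11 and 186 in Tgfbr2-cKO (7 dpi), and 223, 187 and 142 CPM (21 dpi). It was lowest in Tgfbr2-cKO at both times but within 2-fold of Ctrl, at log2 ratios of −0.82 (−1.12 to −0.55) and −0.65 (−0.92 to −0.40). Outside both gates they were −0.43 (7 dpi) and −0.53 (21 dpi). Counts come from the 3′ end of transcripts and do not show whether the floxed exon was removed, so they do not check the deletion. The partner receptor Tgfbr1 stood at 189, 151 and 134 CPM (7 dpi) and 228, 132 and 128 CPM (21 dpi). Smad3, a signal carrier, stood at 154, 156 and 141 CPM (7 dpi) and 161, 139 and 129 CPM (21 dpi). Of 7 receptors and Smads examined, 1 was called in members, the co-receptor betaglycan (Tgfbr3).

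Tgfbr3 stood at 235 CPM in Ctrl, 613 with ADWA11 and 448 in Tgfbr2-cKO (7 dpi), and 281, 509.9 and 790.0 CPM (21 dpi), so that Ctrl was lowest at each time. The log2 ratios over Ctrl were 1.38 with ADWA11 and 0.93 in Tgfbr2-cKO (7 dpi) and 0.86 and 1.49 (21 dpi). The ADWA11 ratio at 7 dpi was 1.39 in female and 1.39 in male nuclei. The Tgfbr2-cKO ratio at 21 dpi was 1.27 in female and 1.55 in male nuclei. It was called with ADWA11 at 7 dpi and in Tgfbr2-cKO at 21 dpi, and outside both gates also in Tgfbr2-cKO at 7 dpi (1.34).

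Of 10 known targets of TGFβ signalling, 6 were lower with ADWA11 at 7 dpi and 6 in Tgfbr2-cKO at 21 dpi, with fewer calls in the other comparisons. With ADWA11 at 7 dpi, 0 of 10 were higher and 6 lower (Pmepa1, Skil, Cdkn2b, Ccn2, Ltbp2, Ldlrad4), at a median log2 ratio of −1.10, where all genes had 0.07. In Tgfbr2-cKO at 21 dpi 1 was higher (Cdkn2b) and 6 lower (Pmepa1, Skil, Ccn2, Ltbp2, Tgif1, Ldlrad4), at −1.31 against −0.03 for all genes. Outside both gates this was 1 higher and 4 lower, at −1.11. With ADWA11 at 21 dpi 0 were higher and 2 lower (Ccn2, Ldlrad4), at −0.27. In Tgfbr2-cKO at 7 dpi 1 was higher (Cdkn2b) and 0 lower, at −0.42, and outside both gates 2 higher and 1 lower (Smad7 and Ccn2 called there alone), at −0.03. With TMM factors the tally was turned round, with 0 higher and 2 lower, at −0.56. In single nuclei thinned to 3000 UMIs, at least 2 of the targets were found in 87.9, 62.1 and 67.3% (7 dpi) and 74.5, 62.8 and 35.7% (21 dpi) of members, but also in up to 75.5% of gate nuclei that were not collagen-positive. With 4 of 5 markers required, which leaves 11 Tgfbr2-cKO members at 21 dpi, the gap to Ctrl was smaller at that time, as given at the end.

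Ldlrad4, an inhibitor of the pathway, stood at 1416 CPM in Ctrl, 629 with ADWA11 and 766 in Tgfbr2-cKO (7 dpi), and 975, 429.9 and 300.3 CPM (21 dpi). Its log2 ratios were −1.17 with ADWA11 and −0.89 in Tgfbr2-cKO (7 dpi) and −1.18 and −1.70 (21 dpi), below 0 in all 4 comparisons. Pmepa1, a feedback inhibitor, stood at 750.3, 306 and 396 CPM (7 dpi) and 347, 214 and 148 CPM (21 dpi), and was also below Ctrl in every other library of its time. Skil, which binds Smads, stood at 128, 62.3 and 95.5 CPM (7 dpi) and 117, 73 and 40.3 CPM (21 dpi). Ltbp2, a matrix protein related to the TGFβ-binding proteins, stood at 158, 57.9 and 118 CPM (7 dpi) and 171, 211 and 43.7 CPM (21 dpi). At 21 dpi its ratio was 0.30 with ADWA11 and −1.96 in Tgfbr2-cKO, so it was low in only 1 of them. For Ccn2 (connective tissue growth factor) the Tgfbr2-cKO ratio at 7 dpi was 0.12 in all members and −2.40 outside both gates.

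Of 12 genes that make, store or release TGFβ, Ltbp1, which holds latent TGFβ in the matrix, was lower in all 4 comparisons. It stood at 276, 114 and 102 CPM (7 dpi) and 111, 30.2 and 51.5 CPM (21 dpi), with ratios of −1.28 with ADWA11 and −1.43 in Tgfbr2-cKO (7 dpi) and −1.88 and −1.10 (21 dpi). In Tgfbr2-cKO at 7 dpi 4 were lower (Thbs1, Ltbp4, Tgfb3, Ltbp1), and 3 outside both gates. At 21 dpi 3 were lower (Tgfb1, Tgfb3, Ltbp1) and 1 higher (Itgb8), and outside both gates 1 higher and 2 lower. There Ltbp1 was the lower call that was lost, at −0.70. With ADWA11 Tgfb3 and Ltbp1 were lower at 7 dpi, and Ltbp1 was lower and Thbs1 higher at 21 dpi. The ligand Tgfb3 stood at 70.8, 31.6 and 27.8 CPM (7 dpi) and 52.7, 47 and 14.6 CPM (21 dpi). Tgfb1 stood at 41.2, 25.3 and 20.8 CPM (7 dpi) and 29.2, 30.6 and 11.2 CPM (21 dpi) and was lowest in Tgfbr2-cKO at both times. Tgfb2 stood at 173, 206 and 102 CPM (7 dpi) and 121, 138 and 98.6 CPM (21 dpi). Of the subunits of αvβ8, Itgav stood at 284, 239 and 191 CPM (7 dpi) and 200.4, 157 and 184 CPM (21 dpi). Itgb8 stood at 230.4, 290.1 and 222 CPM (7 dpi) and 133, 144 and 312 CPM (21 dpi). Its Tgfbr2-cKO ratio at 21 dpi, 1.23, was −0.36 in female and 2.12 in male nuclei and −0.10 without the 5 nuclei with most Itgb8 UMIs in each library.

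**Figure D3:**
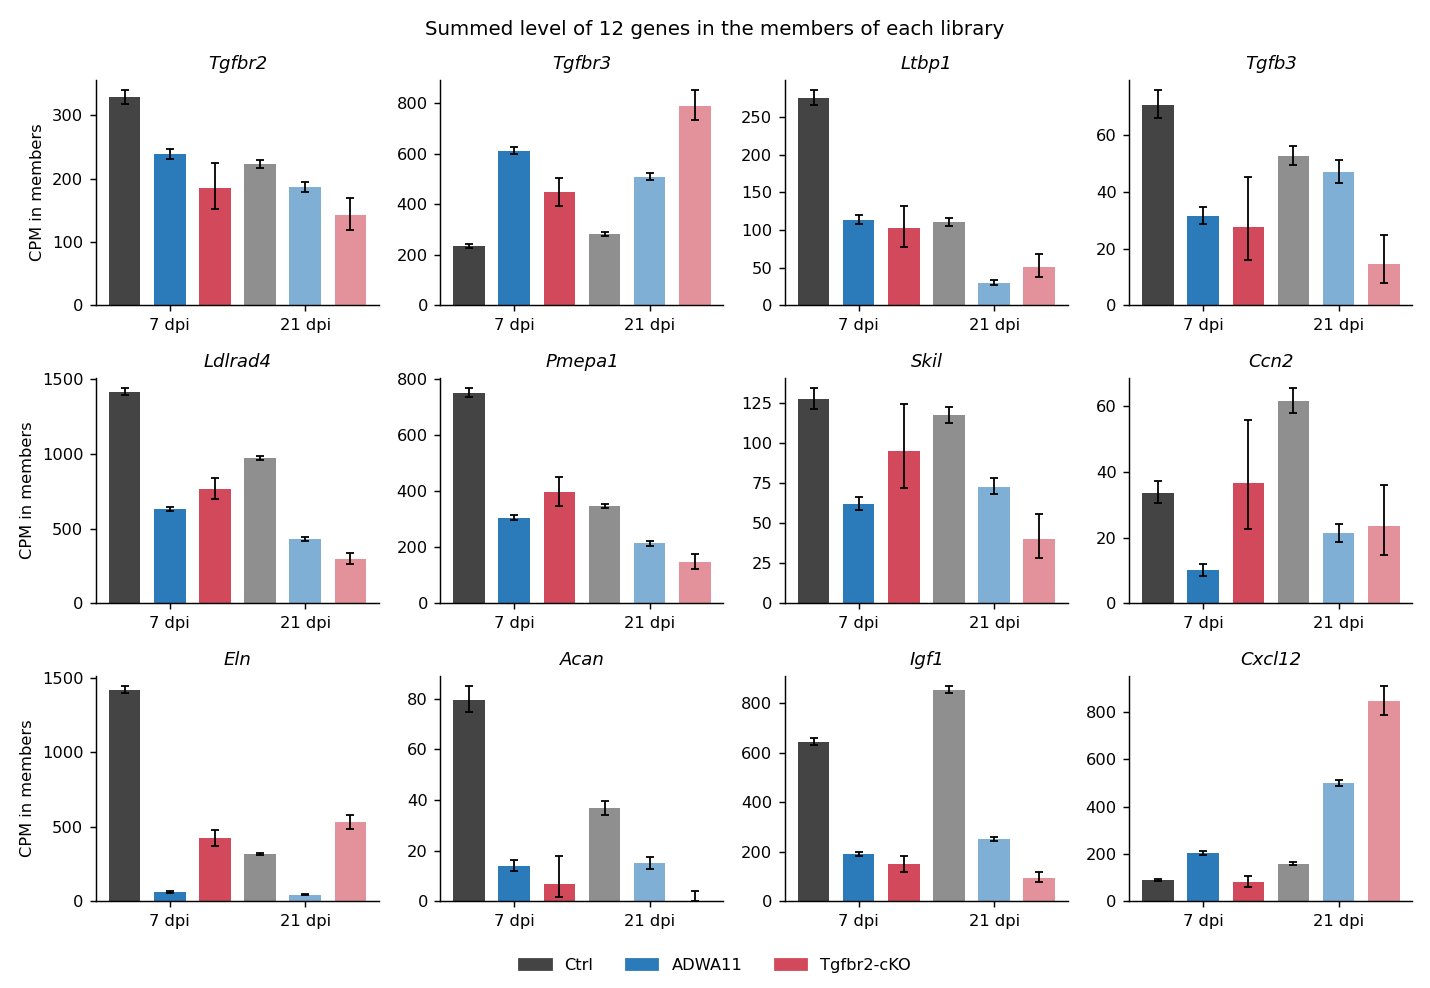
Levels in members (CPM, linear axis) of selected genes in the 6 libraries, with exact 95% Poisson intervals. Tgfbr3 stood at 235 CPM in Ctrl and 613 CPM with ADWA11 at 7 dpi, and Cxcl12 at 159.6 CPM in Ctrl and 845 CPM in Tgfbr2-cKO at 21 dpi.

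Glycoproteins and proteoglycans of the scar matrix had more calls on the lower than on the higher side in Tgfbr2-cKO members. Of 19 examined, 0 were higher and 10 lower at 7 dpi, at a median of −1.13 (0 higher and 6 lower outside both gates, −0.77). At 21 dpi 2 were higher (Tnxb, Fbn2) and 11 lower, at −1.47 (2 higher and 10 lower outside both gates, −1.06). With ADWA11, Tnxb was higher at both times, 4 were lower at 7 dpi (Fmod, Eln, Acan, Bgn) and 6 at 21 dpi (Fbn1, Matn4, Eln, Mfap5, Acan, Vcan), at medians of −0.56 and −0.13. Acan (aggrecan, the large proteoglycan of cartilage) stood at 79.6 CPM in Ctrl, 14 with ADWA11 and 6.95 in Tgfbr2-cKO (7 dpi), and 36.8, 15.1 and 0 CPM (21 dpi). It was thus highest in Ctrl at both times, and in the last library it had 0 UMIs, for which a count of 3 gives a log2 ratio of at most −3.45. Sparc, a collagen-binding protein, stood at 537, 317 and 226 CPM (7 dpi) and 522, 451 and 179 CPM (21 dpi). Decorin (Dcn), a small proteoglycan, stood at 295, 350.3 and 122 CPM (7 dpi) and 474, 489 and 366 CPM (21 dpi). Fbn1 (fibrillin) stood at 711, 436 and 597 CPM (7 dpi) and 486, 233 and 249 CPM (21 dpi), and was highest in Ctrl at each time. Versican (Vcan), a large proteoglycan, stood at 686, 589.8 and 368 CPM (7 dpi) and 178, 34.6 and 78.4 CPM (21 dpi).

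Elastin (Eln, chr5:134702593-134747323, minus strand) stood at 1422 CPM in Ctrl, 62.2 with ADWA11 and 424 in Tgfbr2-cKO (7 dpi), and 319, 43.4 and 532 CPM (21 dpi). The ADWA11 libraries were lowest at each time. The log2 ratio of ADWA11 over Ctrl was −4.52 (−4.62 to −4.41) at 7 dpi, with −4.56 in female and −4.32 in male nuclei. At 21 dpi it was −2.88 (−3.02 to −2.74), with −3.31 in female and −2.63 in male nuclei. The Tgfbr2-cKO ratio was −1.75 at 7 dpi, and −1.33 outside both gates. At 21 dpi the Tgfbr2-cKO ratio of 0.74 rested on few nuclei, since it was −4.24 in female and 2.23 in male nuclei, −0.22 outside both gates, and −4.24 without the 5 nuclei with most Eln UMIs in each library.

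Fibril collagens outside the rule, listed together with collagen VI chains, were lower in part in Tgfbr2-cKO. At 7 dpi 5 of 10 were lower (Col11a1, Col27a1, Col16a1, Col6a2, Col14a1) and 1 higher (Col5a3), at a median of −0.87. Outside both gates this was 2 higher and 1 lower (Col24a1 called there alone), at −0.48, so most of these calls were lost. At 21 dpi 5 were lower (Col6a3, Col11a1, Col27a1, Col16a1, Col14a1) and 1 higher (Col24a1), at −1.05, and outside both gates 2 higher and 4 lower (Col5a3 called there alone), at −0.83. With ADWA11 Col5a3 was higher and none lower at 7 dpi, and Col24a1 was higher and Col11a1 and Col16a1 lower at 21 dpi. Col11a1, a minor fibrillar collagen, stood at 1344 CPM in Ctrl, 745 with ADWA11 and 313 in Tgfbr2-cKO (7 dpi), and 1510.0, 676 and 142 CPM (21 dpi). Its ratios were −0.85 with ADWA11 and −2.10 in Tgfbr2-cKO (7 dpi) and −1.16 and −3.41 (21 dpi), and the Tgfbr2-cKO ratio at 21 dpi was −3.84 in female and −2.83 in male nuclei. Col6a3, a chain of beaded-filament collagen, stood at 438, 277 and 274 CPM (7 dpi) and 319, 172 and 53.8 CPM (21 dpi). Col14a1, which sits on fibrils, stood at 331, 406 and 153 CPM (7 dpi) and 605, 575 and 80.7 CPM (21 dpi). Both were lowest in Tgfbr2-cKO at 21 dpi.

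The collagens and markers of the rule are given as a description. Col1a1 stood at 1900.5, 1121 and 794 CPM (7 dpi) and 1253, 1089.7 and 189 CPM (21 dpi). Col1a2 stood at 3761, 2768 and 1292 CPM (7 dpi) and 3822, 2964 and 547 CPM (21 dpi). Col3a1 was measured at 2648, 2524 and 1551 CPM (7 dpi) and 2047, 1555 and 609.6 CPM (21 dpi) and Col5a2 at 1732, 1797 and 945 CPM (7 dpi) and 1392, 1069 and 492 CPM (21 dpi). All 4 were lowest in Tgfbr2-cKO at 21 dpi. Postn had 443, 217 and 234 CPM (7 dpi) and 146, 151 and 91.9 CPM (21 dpi) and Col12a1 had 1502, 1045 and 529.6 CPM (7 dpi) and 1379.5, 930.4 and 368 CPM (21 dpi). Kif26b had 777, 371 and 415 CPM (7 dpi) and 135, 60.4 and 66.1 CPM (21 dpi) and Nox4 had 402, 211 and 155 CPM (7 dpi) and 601, 365 and 154 CPM (21 dpi). Col8a1 had 3216, 1528 and 1049 CPM (7 dpi) and 3573, 1145 and 450.5 CPM (21 dpi). Except for Postn with ADWA11 at 21 dpi, each marker had its highest CPM in Ctrl at each time.

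Enzymes that process collagen gave most calls in Tgfbr2-cKO at 21 dpi. Of 14, P4ha2 was higher and P4ha3 and Tll1 lower in Tgfbr2-cKO at 7 dpi, with 1 higher and 0 lower outside both gates. At 21 dpi P4ha2 and Loxl2 were higher and Serpinh1, P4ha3, Loxl1 and Plod2 lower, with 2 higher and 4 lower outside both gates. Over all genes 8.6% were higher and 6.66% lower in that comparison. With ADWA11 Loxl1 was lower at 7 dpi and Plod2 at 21 dpi. Of 13 basement membrane genes, Nid2 was lower in Tgfbr2-cKO at 7 dpi, and Col18a1 and Lamb1 were higher at 21 dpi, with 1 higher and 0 lower (Col15a1 called there alone) and then 2 higher and 0 lower outside both gates. With ADWA11 Col4a6 was lower at 7 dpi, and Col15a1, Col4a6 and Col4a5 at 21 dpi. The laminin chain Lama2 stood at 1439, 1646 and 1115 CPM (7 dpi) and 1627, 1727 and 1355 CPM (21 dpi). Lama4 stood at 608, 772 and 564 CPM (7 dpi) and 445, 598 and 644 CPM (21 dpi), and the collagen IV chain Col4a1 at 625, 652 and 445 CPM (7 dpi) and 349, 232 and 248 CPM (21 dpi).

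Of 18 matrix proteases and inhibitors, Mmp3 (stromelysin) was higher in all 4 comparisons and Timp3, an inhibitor, lower in 3. Mmp3 stood at 8.44, 158 and 130.2 CPM (7 dpi) and 20.4, 186 and 227 CPM (21 dpi), with ratios of 4.23 with ADWA11 and 3.95 in Tgfbr2-cKO (7 dpi) and 3.19 and 3.48 (21 dpi). The Tgfbr2-cKO value at 21 dpi rested on few nuclei, since it was −2.86 in female and 5.14 in male nuclei and −1.39 without the 5 nuclei with most Mmp3 UMIs in each library. Timp3 stood at 172, 65.5 and 115 CPM (7 dpi) and 205, 69 and 70.6 CPM (21 dpi). Mmp13, a collagenase, stood at 206, 245 and 57.3 CPM (7 dpi) and 159, 309 and 5.6 CPM (21 dpi), lowest in Tgfbr2-cKO at both times. Adamts17, a secreted metalloprotease, stood at 112, 49.4 and 76.4 CPM (7 dpi) and 458, 206 and 16.8 CPM (21 dpi), highest in Ctrl at each time. Other calls in Tgfbr2-cKO were Adamts14 higher and Mmp13 and Mmp14 lower at 7 dpi, and Adamts16 and Adamts12 higher and Adamts17, Mmp13, Timp3, Adamts6 and Mmp14 lower at 21 dpi. Outside both gates the counts were 4 higher and 3 lower (Mmp19, Adamts5 and Adamts17 called there alone) at 7 dpi and 4 higher and 4 lower (Adamts9 called there alone) at 21 dpi. Those with ADWA11 were Adamts9 and Adamts5 higher and Adamts17, Timp3 and Adamts6 lower at 7 dpi, and Adamts14 higher and Adamts17, Timp3, Adamts16 and Adamts6 lower at 21 dpi.

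**Figure D4:**
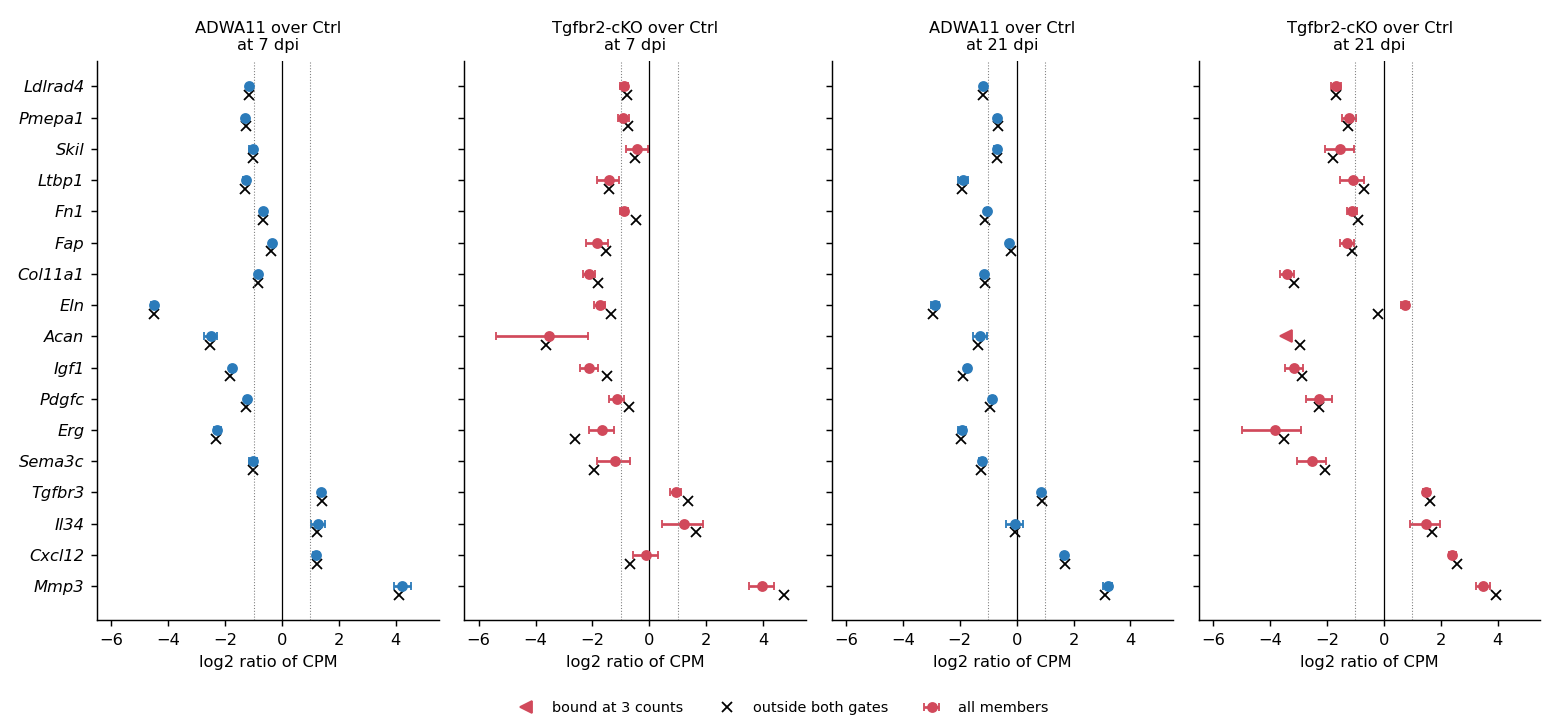
Log2 ratios of CPM over Ctrl (x axis) in members for the genes named at the left, for ADWA11 and Tgfbr2-cKO at 7 and 21 dpi, with exact 95% counting intervals, the value outside both gates (cross) and lines at 2-fold. Igf1 lay left of 0 in all 4 panels, at −1.76 with ADWA11 and −2.11 in Tgfbr2-cKO (7 dpi) and −1.76 and −3.15 (21 dpi).

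Activation genes of scar fibroblasts outside the rule were lower in part in Tgfbr2-cKO. At 7 dpi 4 of 11 were lower (Fap, Tnc, Runx1, Thbs2) and 0 higher, at a median of −0.89, but 0 higher and 1 lower outside both gates, at −0.47. At 21 dpi 5 were lower (Fn1, Fap, Ddah1, Tnc, Thbs2) and 1 higher (Adam12), at −1.13, and 1 higher and 4 lower outside both gates. With ADWA11 Ddah1 was lower at 7 dpi, and Fn1 and Ddah1 at 21 dpi. Fn1 stood at 1668, 1043 and 899 CPM (7 dpi) and 710.5, 342 and 325 CPM (21 dpi), highest in Ctrl at each time. Fap stood at 375, 292 and 106 CPM (7 dpi) and 388, 325 and 159 CPM (21 dpi), and Runx1, a transcription factor, at 774, 466 and 380.3 CPM (7 dpi) and 660.0, 635 and 749 CPM (21 dpi). Tenascin C (Tnc) stood at 312, 168 and 102 CPM (7 dpi) and 159, 253 and 4.48 CPM (21 dpi), with 4 UMIs in the last library. The metalloprotease Adam12 stood at 1640.0, 2742 and 1653 CPM (7 dpi) and 1111, 1844 and 3433 CPM (21 dpi). Cthrc1 stood at 81, 117 and 79.9 CPM (7 dpi) and 16.1, 19.6 and 12.3 CPM (21 dpi), lower at 21 than at 7 dpi in each group and not called between groups.

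Contractile genes gave few calls between groups. In Tgfbr2-cKO at 7 dpi Actg2 was higher and Acta2 lower of 21 examined, and at 21 dpi Pdlim7 was lower of 19. Over all genes 8.0% were higher and 4.7% lower at 7 dpi and 8.6% and 6.66% at 21 dpi, so these counts do not set the list apart. Outside both gates Synpo2 was higher and Acta2 lower of 20 at 7 dpi, and Actn1 was lower of 19 at 21 dpi, so that the calls of Actg2 and Pdlim7 were lost. Mural cells also express Acta2 and other contractile genes, and the 8 mural markers summed to 192, 169 and 79.9 CPM (7 dpi) and 105, 84.5 and 177 CPM (21 dpi) in members. Of 4 examined in Tgfbr2-cKO at 7 dpi, 3 were lower (Rgs5, Abcc9, Cspg4), and 3 outside both gates. Of the list, Kcnj8 and Higd1b were at 0 in Tgfbr2-cKO at both times. The part of mural RNA in the contractile values, also over time in Ctrl, was not tested. With ADWA11 Lmod1 and Actg2 were lower of 21 at 7 dpi, where 2.25% of all genes were, and 0 of 19 were called at 21 dpi. Acta2 stood at 23.9, 21.3 and 1.74 CPM (7 dpi) and 5.56, 4.59 and 3.36 CPM (21 dpi). The 7 dpi value of Tgfbr2-cKO rested on 1 UMI, against 283 in Ctrl, for a log2 ratio of −3.78 (−9.09 to −1.29). Palld, an actin-bundling protein, stood at 491, 367 and 333 CPM (7 dpi) and 228, 193 and 132 CPM (21 dpi). Caldesmon (Cald1) stood at 1604, 1044 and 819.6 CPM (7 dpi) and 1076, 952 and 662 CPM (21 dpi), and myosin light chain kinase (Mylk) at 187, 196 and 106 CPM (7 dpi) and 281, 535 and 331 CPM (21 dpi).

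Signals to leukocytes were called higher more often than lower with ADWA11 at both times and in Tgfbr2-cKO at 21 dpi. With ADWA11 at 7 dpi 4 of 8 were higher (Cxcl5, Cxcl12, Il34, Tnfsf11) and 0 lower, at a median of 0.70. At 21 dpi 6 of 12 were higher (Cxcl5, Cxcl1, Cxcl12, Ccl2, Ccl7, Cd80) and 1 lower (Lif), at 0.78. In Tgfbr2-cKO at 21 dpi 6 of 11 were higher (Cxcl5, Cxcl1, Cxcl12, Il34, Ccl2, Tnfsf11) and 1 lower (Il33), at 1.47, with 6 higher and 1 lower outside both gates. At 7 dpi Il34 and Tnfsf11 were higher and Csf1 and Il33 lower of 7, at −0.13, with 3 higher and 1 lower (Cd80 called there alone) outside both gates. The 21 dpi values of Cxcl1 and Tnfsf11 in Tgfbr2-cKO were −0.19 and −0.48 without the 5 nuclei with most of their UMIs in each library. At least 2 genes of the list were found in 17.8, 26.7 and 25% (7 dpi) and 27.9, 47.1 and 51.8% (21 dpi) of members at 3000 UMIs and in up to 7.06% of gate nuclei that were not collagen-positive.

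Cxcl12, a chemokine that attracts and retains lymphocytes and other leukocytes, stood at 89.5 CPM in Ctrl, 205 with ADWA11 and 81.6 in Tgfbr2-cKO (7 dpi), and 159.6, 501 and 845 CPM (21 dpi). The ADWA11 ratio was 1.20 (1.09 to 1.30) at 7 dpi and 1.65 (1.59 to 1.72) at 21 dpi, the latter with 0.96 in female and 2.03 in male nuclei. The Tgfbr2-cKO ratio was −0.13 (−0.59 to 0.29) at 7 dpi and 2.40 (2.29 to 2.52) at 21 dpi, the latter with 2.67 in female and 1.89 in male nuclei. It was found in 20.7, 37.9 and 15.4% (7 dpi) and 30.4, 55.7 and 60.7% (21 dpi) of single members at 3000 UMIs (gate nuclei that were not collagen-positive, up to 8.62%), so the ADWA11 and Tgfbr2-cKO libraries exceeded Ctrl at 21 dpi by share as well as by level. The neutrophil chemokine Cxcl5 stood at 0.338, 17.5 and 39.9 CPM (7 dpi) and 2.23, 27.6 and 90.8 CPM (21 dpi), lowest in Ctrl at each time. Il34, a ligand of the macrophage receptor CSF1R, stood at 15.1, 36.4 and 34.7 CPM (7 dpi) and 15, 14.3 and 41.5 CPM (21 dpi). Csf1, the other ligand of that receptor, stood at 38.8, 40.8 and 15.6 CPM (7 dpi) and 48.4, 65 and 75.1 CPM (21 dpi). Il33, an alarm cytokine kept in the nucleus, stood at 227, 142 and 85.1 CPM (7 dpi) and 225, 188 and 70.6 CPM (21 dpi), lowest in Tgfbr2-cKO at each time. Myeloid markers outside the rule summed to 204, 254 and 159.8 CPM (7 dpi) and 188, 221 and 368 CPM (21 dpi) in members, and T cell markers to 19.6, 17.7 and 69.5 CPM (7 dpi) and 22.6, 57.6 and 111 CPM (21 dpi). Beyond the values outside both gates, their part in these levels was not tested.

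Among 16 growth factors and their receptors and binding proteins, Igf1 (insulin-like growth factor 1) was lower in all 4 comparisons. It stood at 645 CPM in Ctrl, 190.1 with ADWA11 and 149 in Tgfbr2-cKO (7 dpi), and 854, 252 and 96.4 CPM (21 dpi), with ratios of −1.76 with ADWA11 and −2.11 in Tgfbr2-cKO (7 dpi) and −1.76 and −3.15 (21 dpi). The ADWA11 ratio was −1.44 in female and −2.11 in male nuclei at 7 dpi and −1.33 in female and −2.09 in male nuclei at 21 dpi. Outside both gates the Tgfbr2-cKO ratios were −1.47 (7 dpi) and −2.86 (21 dpi). Pdgfc, a ligand of the PDGF receptor α, stood at 448, 192 and 203 CPM (7 dpi) and 228, 126 and 47.1 CPM (21 dpi), highest in Ctrl at each time. Igfbp5, which binds insulin-like growth factors, stood at 229, 502 and 505 CPM (7 dpi) and 605, 926 and 255 CPM (21 dpi). It was called higher in ADWA11 and Tgfbr2-cKO at 7 dpi and lower in Tgfbr2-cKO at 21 dpi. The Tgfbr2-cKO ratio at 7 dpi, 1.14, was 0.05 without the 5 nuclei with most of its UMIs in each library, and that at 21 dpi, −1.24, was 0.03 with 4 of 5 markers required. The receptor Egfr stood at 1942, 1941 and 1092 CPM (7 dpi) and 2058, 1948 and 1762 CPM (21 dpi), and Fgfr1 at 314, 219.7 and 243 CPM (7 dpi) and 358, 284 and 219.6 CPM (21 dpi). The other calls were Fgf2, Pdgfc and Igfbp7 lower in Tgfbr2-cKO at 7 dpi, Pdgfc and Igfbp3 lower at 21 dpi, and, with ADWA11, Pdgfc lower at 7 dpi and Igfbp3 lower at 21 dpi. With nuclei of both gates left out, Pdgfd and Vegfa were called higher in Tgfbr2-cKO at both times. Igf1 was then the 1 gene of the list called lower at 7 dpi, and the 4 lower calls at 21 dpi were kept.

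Of 24 transcription factors of fibroblasts, Erg was lower in all 4 comparisons. This ETS factor, best known from endothelial cells, stood at 254, 52.6 and 79.9 CPM (7 dpi) and 145, 38.4 and 10.1 CPM (21 dpi), with ratios of −2.27 with ADWA11 and −1.67 in Tgfbr2-cKO (7 dpi) and −1.91 and −3.84 (21 dpi). Endothelial markers summed to 104, 111 and 57.3 CPM (7 dpi) and 136, 97.9 and 39.2 CPM (21 dpi) in members, and their part in the Erg values was not tested. In Tgfbr2-cKO at 7 dpi Wwtr1, Foxp2, Ebf2 and Runx2 were lower as well, but outside both gates Ebf2 and Erg alone. At 21 dpi Nr2f2, Ebf3 and Ebf1 were among the genes that were higher, Wwtr1 and Runx2 were lower, and outside both gates Zeb2 was higher as well. With ADWA11 at 21 dpi Ebf3 was higher. Ebf3, a factor of mesenchymal cells, stood at 11.1 CPM in Ctrl, 17 with ADWA11 and 10.4 in Tgfbr2-cKO (7 dpi), and 7.29, 37.2 and 594 CPM (21 dpi). The Tgfbr2-cKO ratio at 21 dpi was 6.35 (6.07 to 6.64), and the ADWA11 ratio 2.35. Runx2, a factor of bone and cartilage lineages, stood at 1010.0, 1042 and 446 CPM (7 dpi) and 1101, 1355 and 405 CPM (21 dpi), lowest in Tgfbr2-cKO at each time.

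Genes that name other fibroblast states of the lesion were also followed. The late inner genes Sema3c and Cdh18 were higher in members than in other collagen-positive nuclei in every library. That list had median log2 ratios of 1.78 (7 dpi) and 1.24 (21 dpi) in Ctrl and 0.26 in Tgfbr2-cKO at 21 dpi. With others of at most 1 exclusion gene, only Cdh18 was higher in every library. How far members overlap the late inner state was not tested. Of 3 late inner fibroblast genes, Sema3c, an axon guidance factor, was lower than in Ctrl in all 4 comparisons. It stood at 105, 52.3 and 45.1 CPM (7 dpi) and 213, 91.3 and 37 CPM (21 dpi). At 21 dpi the adhesion gene Cdh18 was lower with ADWA11 but higher in Tgfbr2-cKO, where Fgf13 was lower. The list's median ratio in Tgfbr2-cKO was −0.55 at 7 dpi, or −1.93 outside both gates, where all 3 were lower. At 21 dpi it was −1.37, or −1.31 with the same 3 calls. Of 11 meningeal fibroblast genes outside the rule, 5 were higher (Ptgds, Slc7a11, Alpl, Aldh1a2, Trpm3) and 1 lower (Crabp2) with ADWA11 at 7 dpi. In Tgfbr2-cKO at 21 dpi Slc7a11, Alpl, Aldh1a2 and Trpm3 were higher and Crabp2 lower. With ADWA11 at 21 dpi Alpl was higher and Ptgds, Crabp2 and Slc22a8 lower, and in Tgfbr2-cKO at 7 dpi Slc7a11 and Aldh1a2 were higher. Outside both gates the Tgfbr2-cKO counts were 2 higher and 1 lower (Trpm3 called there alone) at 7 dpi and 5 higher and 0 lower (Slc13a4 called there alone) at 21 dpi, and Slc7a11 at 7 dpi was −2.14 without the 5 nuclei with most of its UMIs in each library. The cation channel Trpm3 stood at 183, 1256 and 254 CPM (7 dpi) and 359, 517 and 1314 CPM (21 dpi), and its Tgfbr2-cKO ratio at 21 dpi was 1.76 in female and −0.10 in male nuclei. Of 10 Wnt pathway genes examined at 7 dpi with ADWA11, Wnt16 and Sfrp4 were higher and Ccn4 lower, and at 21 dpi Sfrp2 and Wnt16 were higher and Lef1 and Sfrp1 lower of 11. In Tgfbr2-cKO Dkk2 and Ccn4 were lower of 9 at 7 dpi, and none of 8 was called outside both gates. At 21 dpi Wnt16 and Axin2 were higher and Sfrp4 and Ccn4 lower of 10, and outside both gates 3 higher and 3 lower (Wnt5a and Lef1 called there alone).

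Of 10 genes of low oxygen and glycolysis examined in Tgfbr2-cKO members at 7 dpi, 6 were higher (Pdk1, Slc2a1, Hk2, Bnip3, Pfkp, Pgk1) and 0 lower, at a median of 1.07, and outside both gates 7 higher and 0 lower (Ldha called there alone), at 1.54. The glucose transporter Slc2a1 stood at 5.06, 4.22 and 24.3 CPM (7 dpi) and 9.46, 4.68 and 14.6 CPM (21 dpi). The glycolytic enzyme Pgk1 stood at 16, 21.7 and 45.1 CPM (7 dpi) and 10.6, 11.3 and 13.4 CPM (21 dpi) and Pfkp at 64.6, 53.8 and 134 CPM (7 dpi) and 51.7, 37.8 and 52.7 CPM (21 dpi). Hk2 rested on few nuclei, with a ratio of 1.10 and of −0.50 without the 5 nuclei with most of its UMIs in each library. Ndrg1 stood at 16, 31.9 and 24.3 CPM (7 dpi) and 54.3, 120.3 and 78.4 CPM (21 dpi). In the other 3 comparisons with Ctrl at most 1 gene was called in either direction (Egln3 lower in Tgfbr2-cKO at 21 dpi, Ndrg1 higher and Slc2a1 lower with ADWA11 at 21 dpi). Outside both gates, however, 3 were higher (Slc2a1, Hk2, Ldha) and 1 lower (Egln3) in Tgfbr2-cKO at 21 dpi, at a median of 0.54, and Ndrg1 was higher with ADWA11 at 7 dpi. At least 2 of the genes were found in 12.8, 16.1 and 30.8% (7 dpi) and 14.4, 16.6 and 12.5% (21 dpi) of members at 3000 UMIs and in up to 37.3% of gate nuclei that were not collagen-positive.

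Of 23 cell cycle genes, 11 were higher and 0 lower with ADWA11 at 7 dpi, at a median of 0.99. Top2a, which untangles DNA before division, stood at 63.7, 111 and 45.1 CPM (7 dpi) and 12, 16.8 and 4.48 CPM (21 dpi). Mki67, a marker of dividing cells, stood at 49.5, 74.8 and 27.8 CPM (7 dpi) and 7.62, 6.3 and 1.12 CPM (21 dpi). In Tgfbr2-cKO at 7 dpi 0 of 20 were higher and 1 lower (Kif11), at −0.14, whereas outside both gates 7 were higher and 0 lower, at 0.72. At 21 dpi 1 of 17 was higher (Anln) and 6 lower in Tgfbr2-cKO, on 1 UMI of Mki67 and 4 of Top2a, and with ADWA11 1 of 19 was higher (Hmmr). Outside both gates 1 was higher and 2 lower in Tgfbr2-cKO at 21 dpi, and in female nuclei the median of the list there was 0.0015 (all members −1.28). At least 3 of the genes were found in 8.84, 14.3 and 9.62% (7 dpi) and 1.17, 0.944 and 0% (21 dpi) of members at 3000 UMIs, and in up to 20.5% of gate nuclei that were not collagen-positive. The 0 of 56 Tgfbr2-cKO members at 21 dpi allows a share of up to 5.36%.

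Between 7 and 21 dpi in Ctrl, nearly all cell cycle genes and 9 of 22 contractile genes of the members were lower at the later time. Of 14493 genes examined, 1559 (10.8%) were higher and 721 (4.97%) lower at 21 dpi. Of 23 cell cycle genes 0 were higher and 22 lower, at a median of −1.94, where all genes had 0.07. Of 22 contractile genes 0 were higher and 9 lower (Lmod1, Tpm2, Actg2, Palld, Tagln, Tpm1, Cnn2, Myh10, Acta2), at −0.76. Acta2 had 23.9 CPM at 7 dpi and 5.56 CPM at 21 dpi. Of 11 activation genes Fn1, Cthrc1 and Lrrc15 were lower. Of the TGFβ targets Pmepa1 was called lower (−1.11) and no other, and of the 10 collagens Col5a1 (−1.02). Among the glycoproteins Fmod, Matn4, Lum and Ogn were higher and Eln, Fbln2, Acan, Vcan and Fbn2 lower. The basement membrane genes Col18a1 and Lamb1 were lower, at −2.29 and −2.79.

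At 21 dpi 5 of 6 osteoblast markers were also higher in Ctrl members (Bglap2, Bglap, Alpl, Ibsp, Sp7), at a median of 1.82. Their sum was 26.7, 49.4 and 26 CPM (7 dpi) and 72.3, 128 and 123 CPM (21 dpi), and at least 2 of them were found in 0.52, 1.03 and 0% (7 dpi) and 2.09, 5.92 and 1.79% (21 dpi) of members, so few nuclei held them. Of 3 late inner fibroblast genes Sema3c and Fgf13 were higher. Of 5 astrocyte markers Slc1a2, Aldh1l1, Gfap and Aqp4 were higher, with sums of 274, 236 and 236 CPM (7 dpi) and 460.2, 309 and 519.9 CPM (21 dpi). Of 3 T cell markers Themis and Skap1 were higher and Bcl11b lower. Outside both gates the same 5 osteoblast and 4 astrocyte markers were called higher, but Sema3c was not, and of 2 T cell markers examined Skap1 was higher and Bcl11b lower.

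**Figure D5:**
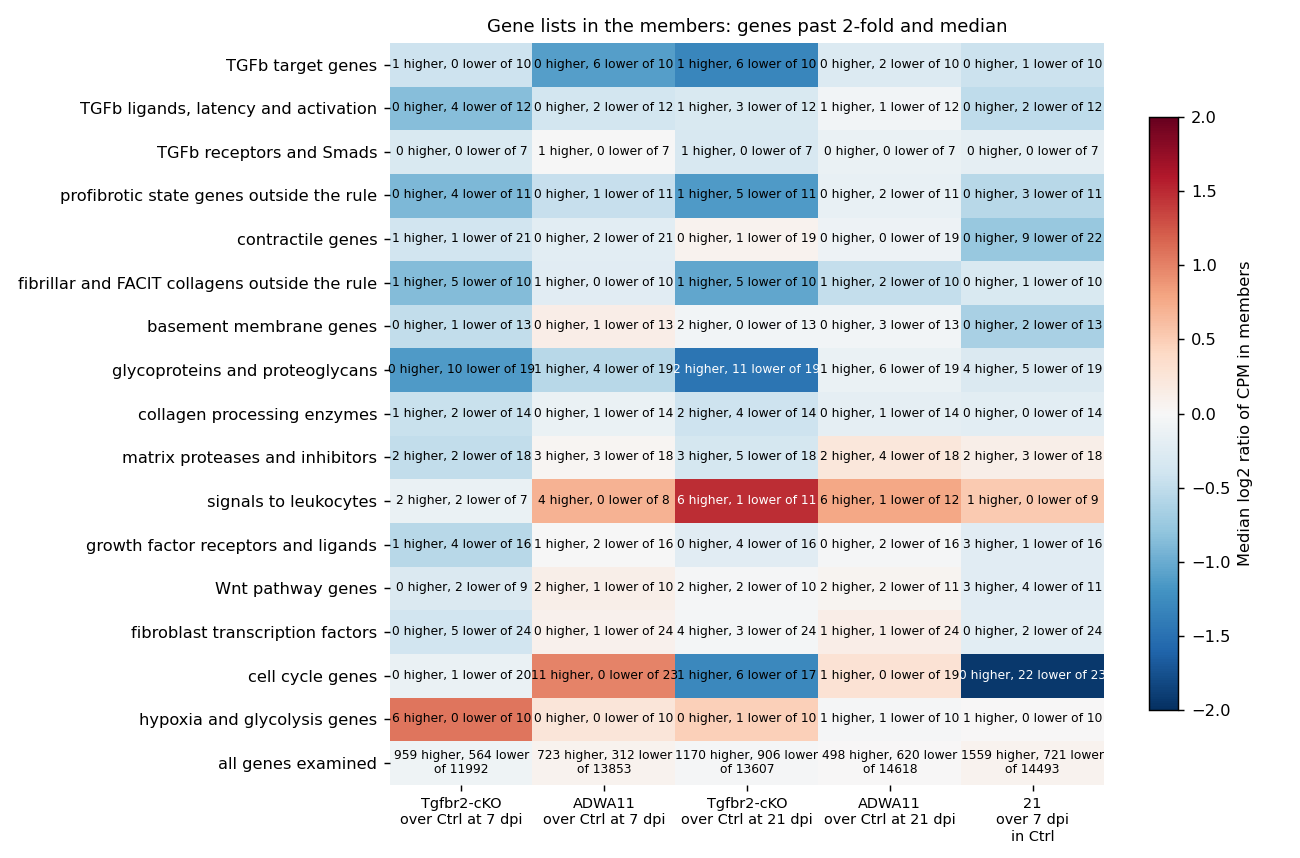
Gene lists (rows) in the 5 comparisons of members (columns), with the colour as the median log2 ratio of CPM over the list and the counts of genes called higher and lower written in each field. Over all genes, 723 were called higher and 312 lower of 13853 for ADWA11 over Ctrl at 7 dpi.

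Beyond the lists, the genes with the largest log2 ratios were taken among those with at least 100 UMIs in the higher library, no nucleus with 10% or more of them, and the same direction in female and male nuclei. A gene with no UMI in the lower library was ranked at the floor of 3 counts, so it could fall behind a gene with 1 UMI there. The named genes, above all the lower ones of Tgfbr2-cKO, can therefore miss genes with no UMI in that library. With ADWA11 at 7 dpi the 8 higher genes were Cxcl5, Nwd2, the collagen VI chain gene Col6a6, Batf3, Plac8, Trpm3, the haemoglobin gene Hbb-bs and A830036E02Rik. Cxcl5 had 17.5 against 0.338 CPM, log2 ratio 5.69, and Trpm3 1256 against 183 CPM, log2 ratio 2.78. The 8 lower genes were Eln, Megf10, Aldh1a3, Svopl, Acan, Lama3, Atp6v0a4 and Fgf18. Megf10, a receptor for engulfment, had 6.48 against 70.3 CPM, log2 ratio −3.44. Aldh1a3, an enzyme of retinoic acid synthesis, had 4.14 against 38.7 CPM, log2 ratio −3.22, and the growth factor gene Fgf18 3.54 against 18.1 CPM, log2 ratio −2.36.

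With ADWA11 at 21 dpi the higher genes were Prok2, Cxcl5, Cftr, Cd5l, Akr1c19, Mmp3, Fabp4 and Ccl6. Prok2, a secreted peptide gene, had 46.3 against 2.06 CPM, log2 ratio 4.49, and the macrophage gene Cd5l 59.3 against 6.23 CPM, log2 ratio 3.25. The lower genes were Frmpd2, Lrrc7, Ptprt, Spock1, 4933400C23Rik, Plpp4, Ptprn and Grm5, several of which are known from neurons. Ptprt, a receptor phosphatase, had 39.6 against 582 CPM, log2 ratio −3.88, and the glutamate receptor gene Grm5 4.32 against 39.4 CPM, log2 ratio −3.19. Neuron markers summed to 25.2 CPM in these ADWA11 members and 85.8 CPM in Ctrl. When nuclei of both gates were left out the ratio was −3.97 for Ptprt, −3.21 for Grm5 and 2.87 for Cd5l.

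For Tgfbr2-cKO at 7 dpi 3 genes passed on the higher side. Arhgap18 had 234 against 85.3 CPM, log2 ratio 1.46. Sned1, a matrix protein gene, had 1547 against 582 CPM, log2 ratio 1.41, and Arap2 210.1 against 103 CPM, log2 ratio 1.03. The 8 lower genes (Aldh1a3, Cd84, Gpx3, Abcc9, Tbxas1, Chrdl1, Lilrb4a, Acta2) had 1 UMI each in the 53 members, so their ratios are wide, from −4.48 (−9.78 to −1.99) for Aldh1a3 to −3.78 (−9.09 to −1.29) for Acta2. Cd84, Tbxas1 and Lilrb4a are known from myeloid cells.

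In Tgfbr2-cKO at 21 dpi the higher genes were Ebf3, Zbtb16, Ephx2, Aldh1a1, Acss3, Sned1, Glis1 and Pla2r1. The zinc-finger factor Zbtb16 had 629.8 against 59.8 CPM, log2 ratio 3.40. Aldh1a1, an enzyme of retinoic acid synthesis, had 1072 against 123 CPM, log2 ratio 3.12. Sned1 had 5284 against 716 CPM, log2 ratio 2.88 and so stood on the higher side at both times. The lower genes were Lama3, Tnc, Gm32926, Mmp13, Adamts17, Cmklr1, C530044C16Rik and Aspn. Adamts17 had 16.8 against 458 CPM, log2 ratio −4.77. Lama3, a laminin chain gene, had 1 UMI and a ratio of −5.62 (−10.93 to −3.14), and asporin (Aspn) had 2 UMIs and a ratio of −4.40 (−7.45 to −2.55).

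Over time in Ctrl the higher genes at 21 dpi were Krt12, Igkc, Igha, A830036E02Rik, Gm34408, G0s2, Gm35041 and C3. The keratin gene Krt12 had 2 UMIs at 7 dpi and a ratio of 6.19 (4.32 to 9.25). It overlaps A830036E02Rik, which is annotated as antisense, on opposite strands (chr11:99415666-99422259, minus, and chr11:99416956-99425497, plus). Whether the 2 are separate signals was not tested. The immunoglobulin gene Igkc had 64.5 against 1.77 CPM, log2 ratio 5.18, and complement C3 29.6 against 1.52 CPM, log2 ratio 4.28. The ratio of Igkc was 5.07 outside both gates. Igkc is known from plasma cells, and their part in this value was not tested. The lower genes were Aldh1a3, Il1rapl2, Ucn2, Adamts16, Col7a1, Vstm2a, Gm6093 and Tmem132c. Aldh1a3 had 1.72 against 38.7 CPM, log2 ratio −4.49, and the anchoring-fibril collagen Col7a1 10.7 against 145 CPM, log2 ratio −3.76. Aldh1a3 stood on the lower side in 3 of the 5 comparisons, which all have Ctrl at 7 dpi as their reference.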

How the data were processed

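Nuclei of photothrombotic cortical lesions were profiled in 6 libraries (Chromium 3′ v3.1), 1 for each of Ctrl, ADWA11 and Tgfbr2-cKO at 7 and 21 dpi, each from 2 mice. The authors aligned reads to mm10 and counted UMIs with Cell Ranger, and the deposited values are raw UMI counts per gene and barcode. The labels name version 7.1.0 and the file headers 7.2.0. Members and gene lists were chosen with earlier results of these data known.

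Barcodes with at least 1000 UMIs and under 5% mitochondrial UMIs were kept, and doublets were called by a Scrublet simulation in Scanpy 1.11.5 (0.8% per 1000 barcodes) but left in. The analysis used Python 3.11.15, NumPy 2.4.6, SciPy 1.17.1 and pandas 2.3.3, and R 4.3.3 with edgeR 4.0.16 for TMM factors alone. UMIs were summed over members per library, since cells are not replicates, and scaled to CPM. Shares carry Clopper-Pearson intervals, levels exact Poisson intervals and ratios exact conditional binomial intervals, all at 95% and for counting error only, with a floor of 3 counts. Genes with at least 50 UMIs over both libraries were examined, and a 2-fold ratio with an interval that leaves out 0 was called. With 1 library per group no p-value was computed. The calling was also run on simulated Poisson counts. These follow the counting model of the intervals and hold no spread between mice or nuclei, so they do not check the calls in these data.

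Named by rule were Tgfbr2, the 15 genes of the rule, the 2 to 4 genes with most UMIs of each of 28 lists (312 genes), and per comparison the 8 genes per direction with the largest ratios among those with at least 100 UMIs, no nucleus with 10% or more of them and the same direction in both sexes. In these rankings a gene with no UMI in a library was set at the floor of counts given above. For members against other nuclei 12 per direction were named. Where few genes were called they are mostly named, and other genes were named after their values were seen.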

Additional observations from a re-analysis of the deposited data

Results flagged for a closer look

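The Tgfbr2-cKO over Ctrl log2 ratio of Igfbp5 in members was 1.14 at 7 dpi and −1.24 at 21 dpi, a difference of −2.385. Its direction turned between the times in nuclei of both sexes, and outside both gates the ratios were 0.89 and −1.02. It was not seen with 4 of 5 markers required, where the ratio at 21 dpi was 0.03, nor without the 5 nuclei with most of its UMIs in each library, where the ratio at 7 dpi was 0.05. The ADWA11 over Ctrl ratio of Ptgds, a prostaglandin synthase of meningeal cells, was 1.36 at 7 dpi and −1.22 at 21 dpi, a difference of −2.587, and outside both gates 1.24 and −1.33. For both genes Ctrl itself differs between the times, and each time has 1 library per group, so the differences were not tested. The share of members among collagen-positive nuclei in Ctrl, 21 over 7 dpi, was −0.40 in female and 0.08 in male nuclei, a difference of 0.4841 (log2) that was not tested, since each sex of a library is 1 mouse.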

How the results depend on the processing

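TMM factors shifted the median of all genes in Tgfbr2-cKO by over 0.1, to −0.22 at 7 dpi and −0.13 at 21 dpi. They changed the balance of calls for transcription factors in Tgfbr2-cKO at 21 dpi, from 4 higher and 3 lower to 3 higher and 4 lower, and for matrix proteases with ADWA11 at 7 dpi, from 3 of each to 1 higher and 4 lower. Alternatives that touch the neuron or myeloid gate, the exclusion genes in the denominator, Ptprc and Csf1r, or 4 markers for single-nucleus shares were chosen after seeing the data. Changes are given below against Ctrl at the same time, or between the times in Ctrl. The labels give no replicate numbers that pair libraries. A fit with the 2 mice of a library, told apart by sex, as pairs or one over both times was not run, and to leave out a library would take away its whole group. With 53 and 57 members the Tgfbr2-cKO libraries leave genes of few UMIs below the minimum that was examined, and no value has an error that covers mice.

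The log2 ratio of the members' share among collagen-positive nuclei moved beyond its counting interval, or changed sign, as follows. With 2 of 5 markers required it was −0.18 (Tgfbr2-cKO at 7 dpi), −0.13 (ADWA11 at 7 dpi), −0.77 (Tgfbr2-cKO at 21 dpi), −0.12 (ADWA11 at 21 dpi) and 0.14 (Ctrl over time). With 4 of 5 markers required it was −2.24 (Tgfbr2-cKO at 7 dpi), −0.82 (ADWA11 at 7 dpi), −2.59 (Tgfbr2-cKO at 21 dpi), −0.63 (ADWA11 at 21 dpi) and −1.11 (Ctrl over time). With nuclei thinned to 3000 UMIs it was −2.26 (Tgfbr2-cKO at 7 dpi), −0.83 (ADWA11 at 7 dpi), −3.13 (Tgfbr2-cKO at 21 dpi), −0.75 (ADWA11 at 21 dpi) and −0.42 (Ctrl over time). Outside both gates it was −1.81 (Tgfbr2-cKO at 7 dpi), −0.51 (ADWA11 at 7 dpi) and −0.47 (Ctrl over time). Without nuclei with a UMI of Ptprc or Csf1r it was −1.86 (Tgfbr2-cKO at 7 dpi), −0.50 (ADWA11 at 7 dpi) and −0.42 (Ctrl over time). Without Nox4 as a marker it was −0.59 (ADWA11 at 7 dpi), −0.40 (ADWA11 at 21 dpi) and −1.07 (Ctrl over time). Without Postn as a marker it was −2.24 (Tgfbr2-cKO at 21 dpi), −0.43 (ADWA11 at 21 dpi) and −0.082 (Ctrl over time). With no exclusion gene allowed it was −1.18 (Tgfbr2-cKO at 21 dpi), −0.092 (ADWA11 at 21 dpi) and −0.81 (Ctrl over time). In male nuclei it was −2.27 (Tgfbr2-cKO at 21 dpi), −0.47 (ADWA11 at 21 dpi) and 0.082 (Ctrl over time). In female nuclei it was −0.40 (Ctrl over time). With at most 1 exclusion gene in the denominator it was −0.45 (Ctrl over time).

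The ratio of the share among all nuclei moved likewise. With 2 of 5 markers required it was −3.87 (Tgfbr2-cKO at 7 dpi), −0.39 (ADWA11 at 7 dpi), −3.45 (Tgfbr2-cKO at 21 dpi), −0.79 (ADWA11 at 21 dpi) and 0.58 (Ctrl over time). With 4 of 5 markers required it was −5.92 (Tgfbr2-cKO at 7 dpi), −1.07 (ADWA11 at 7 dpi), −5.27 (Tgfbr2-cKO at 21 dpi), −1.30 (ADWA11 at 21 dpi) and −0.66 (Ctrl over time). With nuclei thinned to 3000 UMIs it was −5.92 (Tgfbr2-cKO at 7 dpi), −1.21 (ADWA11 at 7 dpi), −6.51 (Tgfbr2-cKO at 21 dpi), −1.38 (ADWA11 at 21 dpi) and 0.12 (Ctrl over time). In female nuclei it was −5.58 (Tgfbr2-cKO at 7 dpi), −0.61 (ADWA11 at 21 dpi) and 0.0073 (Ctrl over time). In male nuclei it was −4.00 (Tgfbr2-cKO at 7 dpi), −4.80 (Tgfbr2-cKO at 21 dpi), −1.37 (ADWA11 at 21 dpi) and 0.62 (Ctrl over time). With the neuron gate out of the denominator it was −3.69 (Tgfbr2-cKO at 7 dpi). Outside both gates it was −4.20 (Tgfbr2-cKO at 7 dpi), −0.50 (ADWA11 at 21 dpi) and −0.29 (Ctrl over time). Without nuclei with a UMI of Ptprc or Csf1r it was −5.87 (Tgfbr2-cKO at 7 dpi), −0.21 (ADWA11 at 21 dpi) and −0.29 (Ctrl over time). Without Nox4 as a marker it was −0.85 (ADWA11 at 7 dpi), −1.07 (ADWA11 at 21 dpi) and −0.62 (Ctrl over time). Without Postn as a marker it was −4.91 (Tgfbr2-cKO at 21 dpi), −1.10 (ADWA11 at 21 dpi) and 0.36 (Ctrl over time). With no exclusion gene allowed it was −3.85 (Tgfbr2-cKO at 21 dpi), −0.76 (ADWA11 at 21 dpi) and −0.36 (Ctrl over time).

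Counts of called genes differed by more than 1.5 times from those in the report as follows. With nuclei thinned to 3000 UMIs they were 403 higher (Tgfbr2-cKO at 7 dpi), 247 lower (Tgfbr2-cKO at 7 dpi), 314 higher (ADWA11 at 7 dpi), 589 higher (Tgfbr2-cKO at 21 dpi), 412 lower (Tgfbr2-cKO at 21 dpi), 293 higher (ADWA11 at 21 dpi), 331 lower (ADWA11 at 21 dpi), 905 higher (Ctrl over time) and 468 lower (Ctrl over time). In male nuclei they were 466 higher (Tgfbr2-cKO at 7 dpi), 330 lower (Tgfbr2-cKO at 7 dpi), 468 higher (ADWA11 at 7 dpi), 737 higher (Tgfbr2-cKO at 21 dpi), 379 lower (ADWA11 at 21 dpi) and 891 higher (Ctrl over time). Outside both gates they were 608 higher (Tgfbr2-cKO at 7 dpi) and 302 lower (Tgfbr2-cKO at 7 dpi). With no minimum of UMIs they were 1736 higher (Tgfbr2-cKO at 7 dpi), 1204 higher (ADWA11 at 7 dpi), 537 lower (ADWA11 at 7 dpi), 1889 higher (Tgfbr2-cKO at 21 dpi) and 995 higher (ADWA11 at 21 dpi). At a minimum of 200 UMIs they were 428 higher (Tgfbr2-cKO at 7 dpi), 312 higher (ADWA11 at 7 dpi), 171 lower (ADWA11 at 7 dpi), 575 higher (Tgfbr2-cKO at 21 dpi), 222 higher (ADWA11 at 21 dpi), 327 lower (ADWA11 at 21 dpi), 707 higher (Ctrl over time) and 368 lower (Ctrl over time). Without called doublets they were 316 lower (Tgfbr2-cKO at 7 dpi). With 4 of 5 markers required they were 314 lower (Tgfbr2-cKO at 7 dpi) and 993 higher (Ctrl over time). In female nuclei they were 302 higher (ADWA11 at 21 dpi).

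Counts over the genes of the lists, without the lists of other cell types and the genes of the rule (from all members 17 higher and 44 lower in Tgfbr2-cKO at 7 dpi and 32 higher at 21 dpi) differed as follows. With the mean of CPM per nucleus they were 29 higher (Tgfbr2-cKO at 7 dpi). Without called doublets they were 28 higher (Tgfbr2-cKO at 7 dpi) and 25 lower (Tgfbr2-cKO at 7 dpi). In male nuclei they were 27 higher (Tgfbr2-cKO at 7 dpi). Outside both gates they were 33 higher (Tgfbr2-cKO at 7 dpi) and 24 lower (Tgfbr2-cKO at 7 dpi). At a minimum of 200 UMIs they were 10 higher (Tgfbr2-cKO at 7 dpi) and 21 higher (Tgfbr2-cKO at 21 dpi). With nuclei thinned to 3000 UMIs they were 27 lower (Tgfbr2-cKO at 7 dpi). In female nuclei they were 69 lower (Tgfbr2-cKO at 7 dpi).

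Smaller values changed sign too, among them Eln at 21 dpi, Ccn2 at 7 dpi and several list medians in Tgfbr2-cKO outside both gates. For genes named in the report and called there, log2 ratios of the opposite sign, bounds left out, were these. Without the 5 nuclei with most UMIs of the gene they were Hk2 −0.50 (Tgfbr2-cKO at 7 dpi), Slc7a11 −2.14 (Tgfbr2-cKO at 7 dpi), Cxcl1 −0.19 (Tgfbr2-cKO at 21 dpi), Itgb8 −0.10 (Tgfbr2-cKO at 21 dpi), Mmp3 −1.39 (Tgfbr2-cKO at 21 dpi) and Tnfsf11 −0.48 (Tgfbr2-cKO at 21 dpi). In female nuclei they were Slc7a11 −0.44 (Tgfbr2-cKO at 7 dpi), Diaph3 0.0015 (Tgfbr2-cKO at 21 dpi), Itgb8 −0.36 (Tgfbr2-cKO at 21 dpi), Mmp3 −2.86 (Tgfbr2-cKO at 21 dpi) and Top2a 0.95 (Tgfbr2-cKO at 21 dpi). With 4 of 5 markers required they were Igfbp5 0.026 (Tgfbr2-cKO at 21 dpi). With nuclei thinned to 3000 UMIs they were Mki67 0.28 (Tgfbr2-cKO at 21 dpi). In male nuclei they were Trpm3 −0.1 (Tgfbr2-cKO at 21 dpi) and Cxcl1 −1.42 (Ctrl over time). For lists with at least 3 genes examined and a median of at least 2-fold in either direction, medians of the opposite sign were these. With 4 of 5 markers required they were 0.35 for endothelial markers (Tgfbr2-cKO at 7 dpi) and 0.13 for cell cycle genes (Tgfbr2-cKO at 21 dpi). With nuclei thinned to 3000 UMIs they were 0.17 for endothelial markers (Tgfbr2-cKO at 7 dpi) and 0.44 for cartilage markers (Tgfbr2-cKO at 21 dpi). In male nuclei they were 0.0034 for endothelial markers (Tgfbr2-cKO at 7 dpi) and −1.02 for oligodendrocyte markers (Tgfbr2-cKO at 7 dpi). In female nuclei they were 0.0015 for cell cycle genes (Tgfbr2-cKO at 21 dpi).

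Of members against others, 718 genes were higher in all 6 libraries when the others had at most 1 exclusion gene, and 1123 were lower after thinning. With 4 of 5 markers required, at least 2 TGFβ targets were in 80.8% of members in Ctrl and 63.6% in Tgfbr2-cKO at 21 dpi. The cause of these changes was not tested, except that thinning and the minimum of UMIs change how many genes can be called.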
